A study of Mus musculus with 22 samples.

Results

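The mitochondrial ribosomal protein genes were taken as every symbol of the gene table that begins with Mrpl or Mrps, which gave 78 of 14407 genes. Of these, 49 carried Mrpl symbols and 29 carried Mrps symbols. By the position of the protein, 51 belonged to the large and 26 to the small subunit of the mitochondrial ribosome, because Mrps30 and Mrps18a encode large-subunit proteins in spite of their symbols. The remaining gene, Mrps36, encodes a component of the 2-oxoglutarate dehydrogenase complex and no ribosomal protein. The genes lie on 17 chromosomes and all 78 matched RefSeq (GRCm38.p6), where the spans of 25 overlap another gene.

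The cells were germinal center B cells from spleens of male C57BL/6 mice, with an age of 8 weeks on the labels, immunized intraperitoneally with the hapten conjugate NP-KLH or with OVA (ovalbumin), each given with alum and lipopolysaccharide. Libraries NP 1 and NP 2 held live B220-positive, Fas-high, GL-7-high cells that bound NP, sorted on day 13, and library OVA 1 held all such germinal center cells of OVA-immunized mice, whatever they bound. No group carried an allele or a drug, and no unimmunized control was among the libraries. The day of the OVA sort, the number of mice per library and whether animals were pooled are not given in the sources used here. Each comparison was made within libraries, so a p-value does not measure the spread between libraries. It reflects how far the difference between groups of cells varied across these 3 libraries, with variance shared over genes. That variation may be technical.

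Mitochondrial ribosomes translate the few messenger RNAs made from mitochondrial DNA, all of which encode subunits of the respiratory chain and ATP synthase. Their RNA comes from the mitochondrial genome, but every one of their proteins is encoded in the nucleus, made in the cytosol and imported. Some of these proteins have counterparts in bacterial ribosomes and others exist only in mitochondria. In germinal centers, B cells divide in the dark zone and take up antigen and receive T cell help in the light zone, where Cd83 is a common marker, and Myc is induced for a short time in cells that receive help.

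The promoter sequences of 6 genes are shown because the levels of these genes are followed across the cell states described next; they were chosen after their values were seen. Mrpl18, Mrps18a, Mrpl27, Mrpl51 and Mrpl14 were high in a cycling state, and Mrpl52 was low in both cycling states. Each sequence holds the 250 bases before a RefSeq transcription start (GRCm38.p6), written 5′ to 3′ on the strand of the gene, and capitals mark matches to 5 motifs: CCGGAAG (the core of sites for ETS factors), CACGTG (E-box), the palindromic NRF1 core, AAGATGGCG (YY1) and CCAAT.
Mrpl18, chr17:12916092-12916341, minus strand: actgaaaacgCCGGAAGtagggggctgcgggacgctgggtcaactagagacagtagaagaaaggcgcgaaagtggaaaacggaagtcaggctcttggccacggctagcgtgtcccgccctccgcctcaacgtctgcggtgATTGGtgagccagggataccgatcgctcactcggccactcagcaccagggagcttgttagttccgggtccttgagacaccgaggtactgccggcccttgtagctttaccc
Mrps18a, chr17:46110754-46111003, plus strand: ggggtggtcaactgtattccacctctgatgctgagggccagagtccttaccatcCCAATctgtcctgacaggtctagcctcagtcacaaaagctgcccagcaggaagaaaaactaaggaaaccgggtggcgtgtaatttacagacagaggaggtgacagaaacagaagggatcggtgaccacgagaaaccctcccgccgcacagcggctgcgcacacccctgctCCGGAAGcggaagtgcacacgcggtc
Mrpl27, chr11:94653541-94653790, plus strand: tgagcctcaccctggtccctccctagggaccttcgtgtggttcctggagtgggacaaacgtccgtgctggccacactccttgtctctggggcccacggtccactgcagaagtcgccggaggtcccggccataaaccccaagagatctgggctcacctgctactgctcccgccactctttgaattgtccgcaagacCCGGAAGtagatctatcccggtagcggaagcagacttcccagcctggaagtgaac
Mrpl51, chr6:125191950-125192199, plus strand: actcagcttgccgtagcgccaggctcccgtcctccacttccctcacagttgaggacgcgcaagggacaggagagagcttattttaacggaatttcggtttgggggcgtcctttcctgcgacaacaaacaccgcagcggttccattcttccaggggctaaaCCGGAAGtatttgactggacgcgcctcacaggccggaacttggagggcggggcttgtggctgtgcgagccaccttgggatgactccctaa
Mrpl14, chr17:45686099-45686348, plus strand: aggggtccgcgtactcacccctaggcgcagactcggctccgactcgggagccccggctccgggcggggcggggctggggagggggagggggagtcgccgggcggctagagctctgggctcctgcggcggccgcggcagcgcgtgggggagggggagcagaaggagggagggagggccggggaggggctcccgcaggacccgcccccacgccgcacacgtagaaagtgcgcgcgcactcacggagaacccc
Mrpl52, chr14:54426659-54426908, plus strand: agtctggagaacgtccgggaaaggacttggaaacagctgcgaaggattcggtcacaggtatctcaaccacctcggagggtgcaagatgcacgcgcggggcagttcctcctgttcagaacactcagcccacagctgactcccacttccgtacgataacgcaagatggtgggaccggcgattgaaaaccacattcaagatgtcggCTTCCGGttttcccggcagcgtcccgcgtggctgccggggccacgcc

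Promoter entries existed for 69 of the 78 genes, 75 promoters in all, and both strands were searched. CCGGAAG was found in 18 of the 75 (24%), against 6.91% of all 32851 promoters and 13.2% of 13210 promoters of genes in the table. In 5 of the 6 sequences printed, Mrpl14 being the exception, it began 240 (Mrpl18), 26 (Mrps18a), 55 (Mrpl27), 90 (Mrpl51) and 47 bases (Mrpl52) before the transcription start, and it read on the opposite strand, as CTTCCGG, in Mrpl52. Among these 5 genes only Mrpl52 was low in the cycling states. Presence of the motif was not tested against the direction of change. By gene, since some genes have several promoters, overlapping or apart, CCGGAAG was in 18 of 69 genes (26.1%), against 15.6% of the 10403 genes of the table with a promoter entry. CCAAT or its reverse ATTGG was in 25 genes (36.2%, against 40.4%) and CACGTG in 5 (7.25%, against 9.59%). Counted by promoter, CCAAT was in 37.3%, against 35.4% of promoters of genes in the table. CACGTG was in 9.33% of the promoters, against 8.07%. For both motifs the side of the background thus depended on the way of counting. The NRF1 core was in 3 genes (4.35%, against 1.90%) and AAGATGGCG in 2 (2.90%, against 1.39%). The shares of all promoters with these motifs were 33.8% (CCAAT), 6.02% (CACGTG), 0.782% (NRF1 core) and 0.606% (AAGATGGCG). CCGGAAG and AAGATGGCG can share the letters AAG. A match describes letters in this window and does not show binding.

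Levels were measured in 6094 cells with at least 500 genes and at most 10% mitochondrial UMIs, each thinned to 2500 UMIs so that depth was equal. A UMI (unique molecular identifier) counts 1 captured transcript at its 5′ end, whatever its length. Thinned cells numbered 2338 in NP 1, 1602 in NP 2 and 2154 in OVA 1, and 262, 154 and 231 shallower cells were left out. The 3 deposited libraries held 20533741, 16161435 and 21412501 UMIs. All 4 B cell markers and all 7 germinal center markers were detected in each library, but 8 myeloid markers summed to 0.313, 7.20 and 15.1 per 10000 UMIs in NP 1, NP 2 and OVA 1. In NP 1, S100a8, S100a9, Lcn2, Ltf, Camp and Ngp were at 0. The libraries shared 17 cell barcodes among the kept cells. Immunoglobulin reads placed cells into isotypes and clones, for 1590, 1358 and 1786 of the thinned cells.

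All 78 genes were detected. Together they made up 60.7 UMIs per 10000 in NP 1 (95% exact Poisson interval 60.1 to 61.3, counting error only), 67.3 in NP 2 (66.5 to 68.1) and 63.8 in OVA 1 (63.2 to 64.5), or a median of 15, 17 and 16 UMIs per thinned cell. Large-subunit transcripts outnumbered small-subunit transcripts 2.12, 2.11 and 2.15 times. Single genes ranged from 0.137 (Mrpl53) to 2.37 per 10000 UMIs (Mrpl52), with a median of 0.675. After Mrpl52, a mitochondria-specific large-subunit protein, came Mrps21 at 2.24, Mrpl18 at 2.19, Mrpl54 at 1.89 and Mrpl33 at 1.64, and these 5 gave 16.2% of the sum. At the low end stood Mrps6 at 0.145, Mrpl47 at 0.188 and Mrps22 at 0.196.

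The order of the genes was nearly the same in the 3 libraries, with a Spearman rho of 0.980 between NP 1 and NP 2, 0.983 between NP 1 and OVA 1 and 0.984 between NP 2 and OVA 1, a description over 78 genes that share the libraries' depth. The neighbours Mrps21 (2.13, 2.37 and 2.22 in NP 1, NP 2 and OVA 1) and Mrpl18 (2.06, 2.47 and 2.06) did not differ beyond their spread. Mrpl53 was the main departure, with 142 UMIs in NP 1 (0.243 per 10000), 33 in NP 2 (0.0824) and 46 in OVA 1 (0.0854), so that 1 NP library stood apart from the other NP library. Mrpl52 read 1.99, 2.35 and 2.78. With 1 OVA library, sorted through another gate, antigen and gate cannot be told apart and no test was made; OVA 1 lay above both NP libraries in 21 of 78 genes (26.9%), against 36.5% of all genes with a UMI, and below both in 17 (21.8%, against 26.9%).

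Cells were divided by a few cell cycle and selection genes, which were then left out of the tests. Mitotic cells had UMIs from at least 4 of 14 mitotic genes, such as Ccnb1 and Plk1 (322, 241 and 278 cells in NP 1, NP 2 and OVA 1). Mcm5-positive cells had a UMI of Mcm5, part of the helicase that unwinds DNA in S phase, and were not mitotic (749, 454 and 544). Cd83-high noncycling cells had at least 2 Cd83 UMIs and none over 19 cycle genes (179, 115 and 162), and Myc-positive cells had a Myc UMI (145, 104 and 190). Counts were summed per library and state and compared by the quasi-likelihood test of edgeR, in which each library formed a block; a gene was called at a Benjamini-Hochberg adjusted p under 0.05 over all genes tested. Folds are log2 over 3 libraries, given ± an SE derived from the fold and its test statistic. This SE uses variance shared over genes and is not the spread of the library values.

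The summed level was highest in the cycling states and lowest in Cd83-high noncycling cells. It was 66.9, 73.0 and 69.7 per 10000 UMIs in mitotic cells of NP 1, NP 2 and OVA 1, and 64.5, 71.4 and 70.6 in Mcm5-positive cells. Cells that were neither had 56.8, 63.8 and 59.8, and Cd83-high noncycling cells had 50.4, 54.3 and 52.4. Noncycling cells of any Cd83 level were nearly as low, at 52.5, 56.6 and 54.8, and their Poisson intervals overlapped those of the Cd83-high noncycling cells among them. In each library both cycling states lay above both Mcm5-negative nonmitotic and Cd83-high noncycling cells, and their Poisson intervals did not meet those of these 2 states. The ratio of large to small-subunit transcripts stayed between 1.99 and 2.28 in these 4 states.

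**Figure D1:**
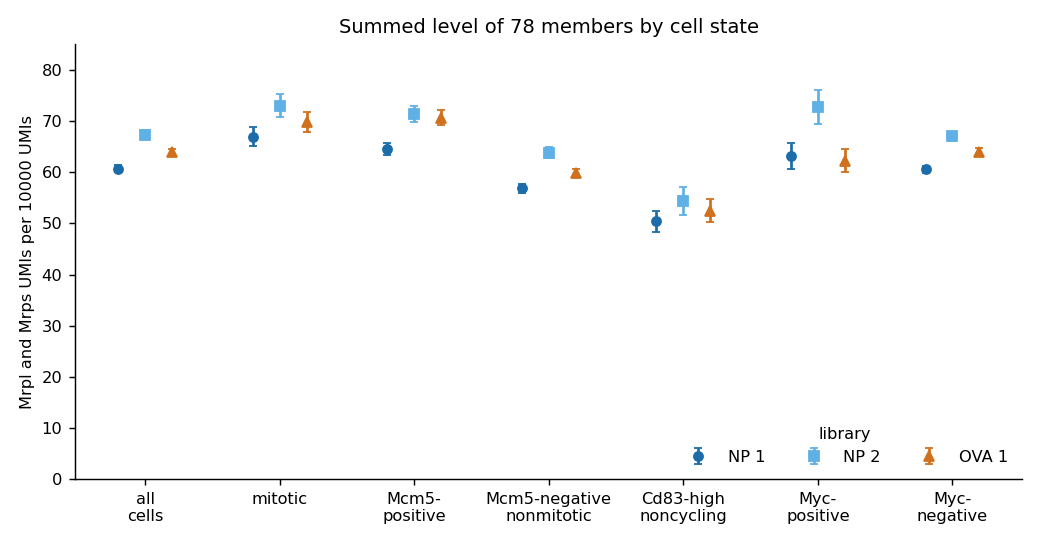
Summed UMIs of the 78 genes per 10000 UMIs (vertical axis) in 7 groups of cells, with a point per library and bars for the 95% exact Poisson interval, which covers counting error only. In each library Cd83-high noncycling cells are lowest, at 50.4, 54.3 and 52.4, and Mcm5-positive and mitotic cells lie between 64.5 and 73.0.

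In Mcm5-positive cells the genes stood mostly above their level in Mcm5-negative nonmitotic cells: 23 of 78 rose, 2 fell and 53 did not pass the test. Among all 8813 genes tested 15.7% rose and 11.2% fell, so the share that rose (29.5%) was above the background and the share that fell (2.56%) below it. Members had a median of 867 UMIs per gene in this comparison, against 386 for all genes tested. The part of these higher counts in the members' shares was not tested. The median log2 fold was 0.17, against −0.01 for all genes, and 65 of 78 were above 0. By subunit, 18 of 51 large-subunit genes rose and 2 fell, and 5 of 26 small-subunit genes rose with none called lower. The median log2 folds were close, at 0.15 for the large and 0.18 for the small subunit. Above 0 were 41 large-subunit and 23 small-subunit genes. The subunits were not tested against each other. In 44 genes (56.4%) the Mcm5-positive value was higher in all 3 libraries, against 27.2% of all genes, and 34 genes had an unadjusted p under 0.05 (43.6%, against 36.1%).

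Mrpl18, a large-subunit protein with a bacterial counterpart, showed the largest rise. Its level was 2.45, 3.27 and 3.05 per 10000 UMIs in Mcm5-positive cells of NP 1, NP 2 and OVA 1, against 1.71, 2.03 and 1.58 in Mcm5-negative nonmitotic cells, a log2 fold of 0.70 ± 0.07 (edgeR adjusted p = 1.4e-24). The lowest Mcm5-positive value was above the highest of the other arm. Mrpl18 (chr17:12911345-12917787) overlaps Tcp1, and since the strand setting of the counting is not given, reads of the 2 genes cannot be told apart where they overlap. Mrpl14, which in bacteria sits at the face between the subunits, read 1.04, 1.08 and 0.993 against 0.60, 0.706 and 0.643 (0.68 ± 0.10, edgeR adjusted p = 8.3e-11). Its span overlaps Tmem63b. The groups did not overlap.

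Next in size came Mrpl13 (0.57 ± 0.12), Mrps22 (0.56 ± 0.19), Mrpl51 (0.56 ± 0.09), Mrpl28 (0.54 ± 0.09), Mrpl49 (0.53 ± 0.11) and Mrps25 (0.51 ± 0.14), of which Mrps22 and Mrps25 are mitochondria-specific small-subunit proteins. Mrpl51 read 1.15, 1.16 and 1.08 against 0.698, 0.869 and 0.748. Mrpl12, the stalk protein that is also known to bind the mitochondrial RNA polymerase, rose by 0.49 ± 0.08, from 1.38, 1.36 and 1.18 to 1.88, 1.86 and 1.82. The 2 genes that fell were Mrpl9 (−0.33 ± 0.11) and the most abundant member, Mrpl52 (−0.17 ± 0.07), whose values of 1.84, 2.16 and 2.78 against 2.16, 2.50 and 2.89 overlapped between the arms although each library went the same way.

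Mcm5-positive cells were also deeper before thinning, with medians of 7795, 10593.5 and 10958.5 UMIs against 5444, 7240 and 6947.5. Myeloid markers summed to 0.00534, 0.740 and 0.309 per 10000 UMIs, against 0.575, 6.88 and 17.0, and memory or naive markers to 0.385, 0.256 and 0.537, against 1.38, 1.71 and 2.07. The part of depth beyond thinning and of memory or naive cells was not tested; without cells carrying markers of other cell types 21 members rose and 2 fell. DESeq2 called 6 members, all higher, among them Mrpl18, Mrpl14, Mrpl28 and Mrpl51, and without NP 1 the count was 15, all higher; Mrpl9 and Mrpl52 lost the call there (−0.36 and −0.15), Mrpl52 (−0.17) and Mrps22 (0.42) without NP 2, and Mrpl9 (−0.30), Mrps22 (0.51) and Mrps25 (0.41) without OVA 1. Without likely doublets Mrpl9 (−0.079), Mrpl52 (−0.16) and Mrps22 (0.48) lost it as well.

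In mitotic cells more members were higher than lower. Against all other cells 14 of 78 rose and 6 fell, while 12.3% of 8878 genes rose and 11.0% fell; the members' shares were 17.9% and 7.69%. The median log2 fold was 0.11, against −0.01 for all genes, and 51 of 78 were above 0. In 33 genes (42.3%) the mitotic value was higher in all 3 libraries, against 27.7% of all genes, and in 11 (14.1%) it was lower in all 3, against 24.2%. Median UMIs per gene were 1019.5 for members and 445.5 for all genes tested, and the part of this difference was not tested. Of 30 large-subunit genes with a bacterial counterpart 6 rose and 2 fell, and of 21 mitochondria-specific large-subunit genes 4 rose and 1 fell. In the small subunit 4 of 26 rose and 3 fell.

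Mrps18a rose most. It encodes a mitochondria-specific protein of the large subunit, and its level was 1.74, 1.46 and 1.54 per 10000 UMIs in mitotic cells of NP 1, NP 2 and OVA 1, against 0.935, 0.802 and 0.731 in the rest (0.91 ± 0.10, edgeR adjusted p = 1.9e-08). Mrpl27, whose bacterial counterpart reaches toward the peptidyl transferase centre, read 0.845, 1.16 and 0.906 against 0.510, 0.667 and 0.542 (0.72 ± 0.12, edgeR adjusted p = 3.4e-05). Mrpl51 read 1.30, 1.68 and 1.31 against 0.865, 0.967 and 0.844 (0.63 ± 0.10, edgeR adjusted p = 1.9e-05). For each of these 3 genes all mitotic values exceeded all others. Mrps18a overlaps Rsph9 and Mrpl27 overlaps Eme1, so reads in the shared stretches cannot be told apart. Mrps18a lies at chr17:46111004-46128908, Mrpl27 at chr11:94653770-94661932 and Mrpl51, which overlaps no other gene, at chr6:125192200-125194392. Mrpl39 (0.64 ± 0.17), Mrpl36 (0.42 ± 0.12), Mrpl20 (0.38 ± 0.10), Mrps23 (0.36 ± 0.12) and Mrpl42 (0.35 ± 0.11) also rose.

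The 6 genes that fell were Mrps28 (−0.44 ± 0.15), Mrpl14 (−0.43 ± 0.14), Mrps34 (−0.43 ± 0.14), Mrps7 (−0.34 ± 0.10), Mrpl17 (−0.34 ± 0.12) and Mrpl52 (−0.29 ± 0.08). Mrps7, a protein of the small subunit's head with a bacterial counterpart, read 1.33, 1.16 and 1.04 in mitotic cells against 1.59, 1.44 and 1.34. Mrpl52 read 1.69, 2.16 and 2.27 against 2.04, 2.38 and 2.86, each library lower in mitotic cells while the ranges overlapped.

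Myeloid markers stood at 0, 20.6 and 34.5 per 10000 UMIs in the mitotic cells of NP 1, NP 2 and OVA 1, against 0.363, 4.83 and 12.2 in the rest. Without cells that carried markers of other cell types, 14 members rose and 7 fell, and all 14 members named here kept their call. Mitotic cells had medians of 7842.5, 11583 and 11246 UMIs before thinning, against 6167, 8217 and 7759. With all UMIs kept, 35 rose and 4 fell, without the share of all genes called at that setting beside them. DESeq2 called 3 members (Mrps18a, Mrpl27 and Mrpl51), and the count was 11 without NP 1, 13 without NP 2 and 10 without OVA 1; 6 of the 14 (Mrps18a, Mrpl27, Mrpl51, Mrpl39, Mrpl20 and Mrpl14) passed without OVA 1, but Mrpl39 did not without NP 2 (0.43), nor Mrpl14 (−0.36) and Mrpl20 (0.23) without NP 1, and without likely doublets Mrpl39 (0.45), Mrps23 (0.30) and Mrps28 (−0.10) lost the call.

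**Figure D2:**
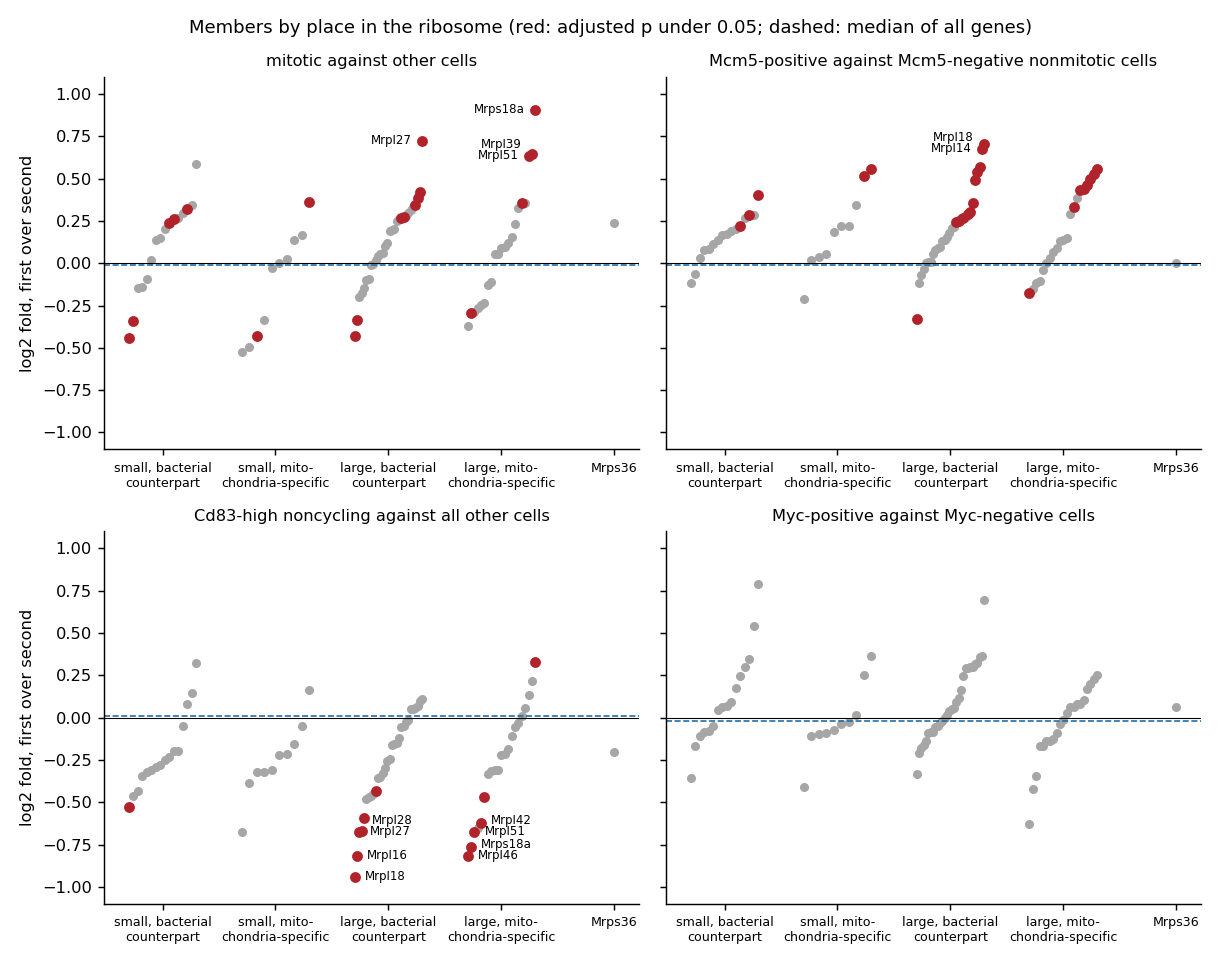
Log2 fold of each member (vertical axis) in 4 comparisons, with genes grouped by place in the ribosome and sorted within each group. Red points passed an adjusted p of 0.05, grey points did not, the dashed line is the median of all genes tested, and called genes beyond 0.6 in size carry their names. Most points lie above the line in Mcm5-positive cells and below it in Cd83-high noncycling cells.

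The difference between the 2 cycling states was tested directly, since both arms had been set against overlapping groups of cells. Between mitotic and Mcm5-positive cells 6 of 77 members tested were higher and 8 lower, close to the background of 9.65% and 9.85% of 7409 genes, and the median was 0.00; 26 (33.8%) had an unadjusted p under 0.05, against 31.0%. Mrpl14 was lower in mitotic cells (0.509, 0.714 and 0.576 against 1.04, 1.08 and 0.993; −0.84 ± 0.15, edgeR adjusted p = 1.2e-06). Mrps18a was higher (1.74, 1.46 and 1.54 against 1.09, 1.02 and 0.890; 0.64 ± 0.12, edgeR adjusted p = 2.9e-06). The groups did not overlap for either gene, and the 2 genes went in opposite directions.

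With Mrpl14 on the lower side in mitotic cells were Mrps28 (−0.56 ± 0.17), Mrpl49 (−0.56 ± 0.16), Mrpl17 (−0.56 ± 0.13), Mrpl41 (−0.48 ± 0.17), Mrps7 (−0.48 ± 0.11), Mrpl12 (−0.45 ± 0.11) and Mrps34 (−0.43 ± 0.15). With Mrps18a on the higher side were Mrpl27 (0.63 ± 0.14), Mrpl39 (0.58 ± 0.19), Mrpl9 (0.43 ± 0.15), Mrpl36 (0.43 ± 0.14) and Mrps14 (0.27 ± 0.10). Mrpl18 did not pass (−0.22 ± 0.09, edgeR adjusted p = 0.056), at 2.51, 2.62 and 2.40 in mitotic and 2.45, 3.27 and 3.05 in Mcm5-positive cells. Calls numbered 7 without OVA 1 (2 higher and 5 lower) and 2 by DESeq2 (Mrps18a and Mrpl14). Without NP 1 the call ended for Mrpl36, Mrpl41, Mrpl49, Mrpl9 and Mrps28, without NP 2 for Mrpl39, Mrps14 and Mrps34, and without OVA 1 for Mrpl17, Mrpl36, Mrpl39, Mrpl41, Mrpl9, Mrps14, Mrps28 and Mrps34. Without likely doublets 9 passed, Mrpl49 turned to 0.067, and Mrpl39 (0.34), Mrpl41 (−0.39), Mrpl9 (0.18), Mrps14 (0.068), Mrps28 (−0.30) and Mrps34 (−0.38) lost the call, as did Mrps14 (0.24) without cells carrying markers of other cell types.

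**Figure D3:**
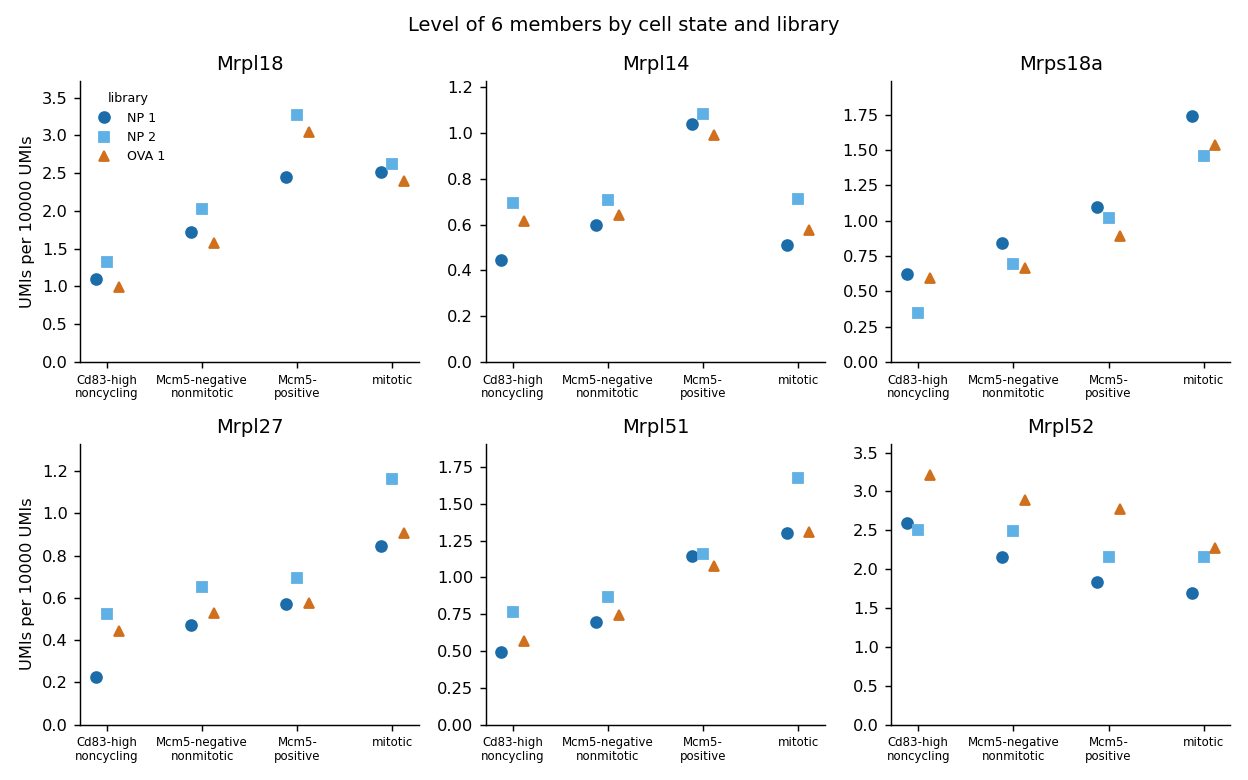
Level of 6 members in UMIs per 10000 UMIs (vertical axes, each from 0) in 4 cell states, with a point per library. Mrpl14 is highest in Mcm5-positive cells, at 0.993 to 1.08, Mrps18a in mitotic cells, at 1.46 to 1.74, and Mrpl52 is lowest in mitotic cells of NP 1 and OVA 1, with mitotic and Mcm5-positive cells both at 2.16 in NP 2.

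Cd83-high noncycling cells had lower levels of the family. Against all other cells 12 of 78 fell and 1 rose, where 9.02% of 8848 genes fell and 7.58% rose; the members' shares were 15.4% and 1.28%. The median log2 fold was −0.25, against 0.01 for all genes. In 50 of 78 genes (64.1%) the Cd83-high value was lower in all 3 libraries, against 28.6% of all genes, and in 2 (2.56%) it was higher in all 3, against 16.6%. Here too members had more UMIs per gene, with a median of 1019.5 against 446 for all genes tested. The part of this difference was not tested. Of the large-subunit genes 11 of 51 fell, and of the small-subunit genes 1 of 26 (Mrps18c, −0.53 ± 0.15), with medians of −0.24 and −0.27.

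Mrpl18 fell most, with 1.09, 1.32 and 0.988 per 10000 UMIs in Cd83-high noncycling cells of NP 1, NP 2 and OVA 1 against 2.14, 2.56 and 2.14 in all others (−0.94 ± 0.13, edgeR adjusted p = 2.0e-11). Mrps18a read 0.626, 0.348 and 0.593 against 1.08, 0.944 and 0.855 (−0.76 ± 0.18, edgeR adjusted p = 0.00033). These values rest on 49, 38 and 40 UMIs of Mrpl18 and on 28, 10 and 24 of Mrps18a in the smaller arm. The arms did not overlap for either gene. Mrpl16 (−0.82 ± 0.26), Mrpl46 (−0.81 ± 0.29), Mrpl27 (−0.68 ± 0.22), Mrpl51 (−0.68 ± 0.18), Mrpl28 (−0.67 ± 0.18) and Mrpl42 (−0.62 ± 0.17) fell as well, on 5 to 32 UMIs per library in the smaller arm.

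Mrpl52 was the exception and rose by 0.33 ± 0.10 (edgeR adjusted p = 0.0090), with 2.59, 2.50 and 3.21 against 1.94, 2.34 and 2.75; the ranges overlapped and each library went the same way. The most abundant gene of the family was therefore lower in mitotic and Mcm5-positive cells and higher in Cd83-high noncycling cells, the reverse of the median member in all 3 comparisons. These comparisons share cells, so the 3 values are not independent.

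Cd83-high noncycling cells had fewer UMIs before thinning, with medians of 4856, 6575 and 6314 against 6613, 8886 and 8250.5. Memory or naive B cell markers summed to 1.25, 1.77 and 2.99 per 10000 UMIs, against 0.919, 1.03 and 1.35, and myeloid markers to 0, 0 and 0.370, against 0.339, 7.76 and 16.3. The part of memory or naive cells was not tested; without cells carrying markers of other cell types 13 members fell and 1 rose, and Mrpl46 (−0.75) lost the call. The count was 5 without NP 1 and 8 without OVA 1, and DESeq2 called Mrpl18 alone. Mrpl16 turned to 0.08 in a second random thinning and lost its call without each library, as did Mrpl46, while Mrpl27, Mrpl51 and Mrpl52 lost it without NP 1 (−0.40, −0.54 and 0.25), Mrpl42 without NP 2 (−0.45) and Mrpl28 without OVA 1 (−0.56). Without likely doublets 14 passed, but Mrpl16 (−0.29), Mrpl27 (−0.55), Mrpl28 (−0.24) and Mrpl46 (−0.34) did not.

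Set directly against Mcm5-positive cells, Cd83-high noncycling cells were lower in 23 of 77 members and higher in 1 (Mrpl52, 0.39 ± 0.11), with 14.5% of 6959 genes lower, 12.5% higher and 27.0% called in either direction, and a median of −0.31 against 0.02 for all genes. In 48 genes (62.3%) the value was lower in all 3 libraries, against 31.2% of all genes. Median UMIs per gene were 376 for members and 220 for all genes tested, and the part of this difference was not tested. Of the large-subunit genes 20 of 50 fell, and of the small-subunit genes 3 of 26 (Mrps25, Mrps12 and Mrps18c). Their median log2 folds were close, at −0.29 and −0.32. The subunits were not tested against each other. Mrpl18 again fell most (1.09, 1.32 and 0.988 against 2.45, 3.27 and 3.05; −1.28 ± 0.13, edgeR adjusted p = 5.9e-15), which is a level 0.411 times as high. After it came Mrps25 (−0.92 ± 0.29), Mrpl28 (−0.90 ± 0.18), Mrpl46 (−0.90 ± 0.30), Mrpl16 (−0.89 ± 0.28), Mrpl50 (−0.88 ± 0.33), Mrpl51 (−0.86 ± 0.18) and Mrps18a (−0.81 ± 0.19). Without NP 1 the count was 10, all lower, with Mrpl46, Mrpl50, Mrpl52 and Mrps25 no longer called. DESeq2 called 5, all lower, among them Mrpl18, Mrpl28 and Mrpl51. Mrpl16 and Mrpl50 lost the call without NP 2 (−0.75 and −0.54), and Mrpl16, Mrpl46 and Mrps25 without OVA 1 (−0.92, −0.71 and −0.77). Without likely doublets Mrpl50, which rests on 9, 2 and 9 UMIs in Cd83-high noncycling cells, turned to 0.27, and Mrpl16 (−0.30), Mrpl46 (−0.49) and Mrps25 (−0.35) lost the call; Mrpl50 also lost it without cells carrying markers of other cell types (−0.80).

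The 3 relatives named Mrps18 were followed across the same comparisons. Mrps18a, of the large subunit, rose in mitotic (0.91 ± 0.10) and Mcm5-positive cells (0.43 ± 0.10) and fell in Cd83-high noncycling cells (−0.76 ± 0.18). Mrps18c, the small-subunit relative with a bacterial counterpart, rose and fell in the same comparisons (0.26 ± 0.10, 0.29 ± 0.08 and −0.53 ± 0.15). Mrps18b, a mitochondria-specific small-subunit protein, passed no test in these 3 comparisons, at 0.00 ± 0.15, 0.06 ± 0.12 and −0.05 ± 0.20. Its SEs would still allow changes near the size of those of Mrps18c in mitotic and Mcm5-positive cells. The folds of the 3 genes were not tested against each other.

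Of the other genes whose symbols mislead, Mrps30 of the large subunit rose in Mcm5-positive cells (0.513, 0.581 and 0.632 per 10000 UMIs against 0.429, 0.406 and 0.393; 0.46 ± 0.13) and passed neither in mitotic (0.15 ± 0.15) nor in Cd83-high noncycling cells (−0.31 ± 0.23). Mrps36, the dehydrogenase component, was called in none of the state comparisons, with 0.24 ± 0.10 in mitotic, 0.00 ± 0.09 in Mcm5-positive and −0.20 ± 0.15 in Cd83-high noncycling cells.

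No member passed the test between Myc-positive and Myc-negative cells. Calls numbered 0 of 78 by edgeR and 0 by DESeq2, where 1.23% of 8828 genes were called higher and 0.476% lower (1.71% in all), and 6 members had an unadjusted p under 0.05 (7.69%, against 10.5%). The summed level was 63.1, 72.7 and 62.2 per 10000 UMIs in Myc-positive cells of NP 1, NP 2 and OVA 1 against 60.5, 67.0 and 64.0, higher in the NP libraries and lower in OVA 1. The median log2 fold was 0.02. Among the 6, Mrpl12 read 1.99, 1.73 and 1.64 against 1.53, 1.46 and 1.34 (0.30 ± 0.13, edgeR adjusted p = 0.31) and Mrpl43 read 0.883, 1.19 and 1.12 against 1.35, 1.49 and 1.40 (−0.42 ± 0.15, edgeR adjusted p = 0.16); both were chosen after their values were seen. Myc-positive cells held NK cell markers at 1.21, 0 and 1.49 per 10000 UMIs and were deeper before thinning in NP 1 and NP 2 (7979 and 10978 against 6296 and 8458.5) but not in OVA 1 (7533 against 8084). Without cells carrying markers of other cell types the count stayed 0, and with all UMIs kept it was 2, both higher.

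Among Cd83-high noncycling cells, which had no UMI of a cycle gene, 10, 10 and 22 cells were Myc-positive. Their summed level was 62.0 (52.6 to 72.6), 56.8 (47.8 to 67.0) and 56.7 (50.6 to 63.4) per 10000 UMIs, against 49.7 (47.6 to 51.9), 54.0 (51.2 to 56.9) and 51.8 (49.4 to 54.2) in Myc-negative cells of that state. The value was higher in each library, and the intervals overlapped in NP 2 and OVA 1. Among noncycling cells of any Cd83 level, the 24, 17 and 55 Myc-positive cells had 53.3, 57.4 and 54.5, against 52.5, 56.6 and 54.8 in all noncycling cells, so the intervals overlapped in each library and OVA 1 was lower. In the test among Cd83-high noncycling cells, 37 members passed the filter on low counts. Of these 37, 0 were called by edgeR and 0 by DESeq2, where 0.215% of 2325 genes were called. An unadjusted p under 0.05 was found for 3 (8.11%, against 7.83%). Of these, Mrpl17 read 1.60, 4.00 and 1.27 against 0.686, 1.18 and 0.857 (1.08 ± 0.41, edgeR adjusted p = 0.37) on 4, 10 and 7 UMIs. Among Mcm5-positive cells, those with Myc summed to 67.4, 81.8 and 65.4, against 64.5, 71.4 and 70.6 in all Mcm5-positive cells, and the 3 libraries did not go the same way.

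No member passed the test between class-switched cells and cells with IgM or IgD. The sums were 61.4, 68.3 and 65.1 per 10000 UMIs in switched cells of NP 1, NP 2 and OVA 1 against 61.6, 67.0 and 64.1. Calls numbered 0 of 78 by edgeR and 0 by DESeq2, where 0.867% of 8761 genes were called higher and 1.55% lower (2.42% in all). An unadjusted p under 0.05 was found for 4 members (5.13%, against 11.6%), and the median log2 fold was −0.01. The smallest of these p-values belonged to Mrps7 (1.67, 1.45 and 1.42 against 1.30, 1.28 and 1.26; 0.23 ± 0.07, edgeR adjusted p = 0.11), a gene picked after its values were seen. By subclass the sums ran from 60.3 (IgG1) to 62.5 (IgG3) in NP 1 and from 65.6 (IgG2c) to 69.7 (IgG2b) in NP 2. In OVA 1 they ran from 58.9 (IgG3, on 43 cells, 54.4 to 63.7) to 68.1 (IgG2c, on 120 cells, 65.2 to 71.2), and IgG2c was the lowest subclass of NP 2 and the highest of OVA 1, so no subclass kept its place across libraries.

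Cells of expanded clones had a slightly higher level. A clone was a set of cells in 1 library with the same heavy-chain V gene, J gene and CDR3 nucleotides. The sum was 59.9, 66.2 and 62.0 per 10000 UMIs in cells seen once (NP 1, NP 2 and OVA 1), 62.3, 69.3 and 65.9 in clones of 2 to 7 cells and 65.4, 71.5 and 67.9 in clones of 8 or more. It was higher with each step of clone size in each library. However, the Poisson intervals of clones of 2 to 7 and of 8 or more cells overlapped in each library. In NP 1 those of cells seen once and of clones of 2 to 7 overlapped as well. The intervals of cells seen once and of clones of 8 or more did not meet in any library. The 3 largest clones of each library ranged from 64.8 to 68.0 in NP 1, from 64 to 76.4 in NP 2 and from 61.0 to 69.9 in OVA 1, with 14 to 40 cells each.

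Between clones of 2 or more cells and cells seen once, 1 of 78 members rose and 0 fell, where 1.08% of 8719 genes rose and 2.05% fell (3.13% in all). That gene was Mrps14, a small-subunit protein with a bacterial counterpart, at 1.47, 1.98 and 1.60 against 1.30, 1.5 and 1.29 (0.27 ± 0.08, edgeR adjusted p = 0.012). It lost the call without NP 2 (0.23), without OVA 1 (0.28) and without likely doublets (0.18), and DESeq2 called 0. The median over members was 0.05, against 0.00 for all genes. In all 3 libraries 22 members (28.2%) were higher and 2 (2.56%) lower, against 19.3% and 14.2% of all genes. Members had a median of 817.5 UMIs per gene, against 352 for all genes tested, and the part of this difference was not tested.

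Clone size moved together with cell state. Mitotic cells made up 13.0%, 13.5% and 10.4% of cells seen once, 16.6%, 17.6% and 16.1% of cells in clones of 2 or more, and 21.9%, 23.7% and 15.0% of cells in clones of 8 or more. Memory or naive markers stood at 1.54, 1.40 and 2.26 per 10000 UMIs in cells seen once and at 0.590, 0.546 and 0.876 in expanded clones. Among noncycling cells alone the median log2 fold over members was 0.05, and 0 members were called.

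**Figure D4:**
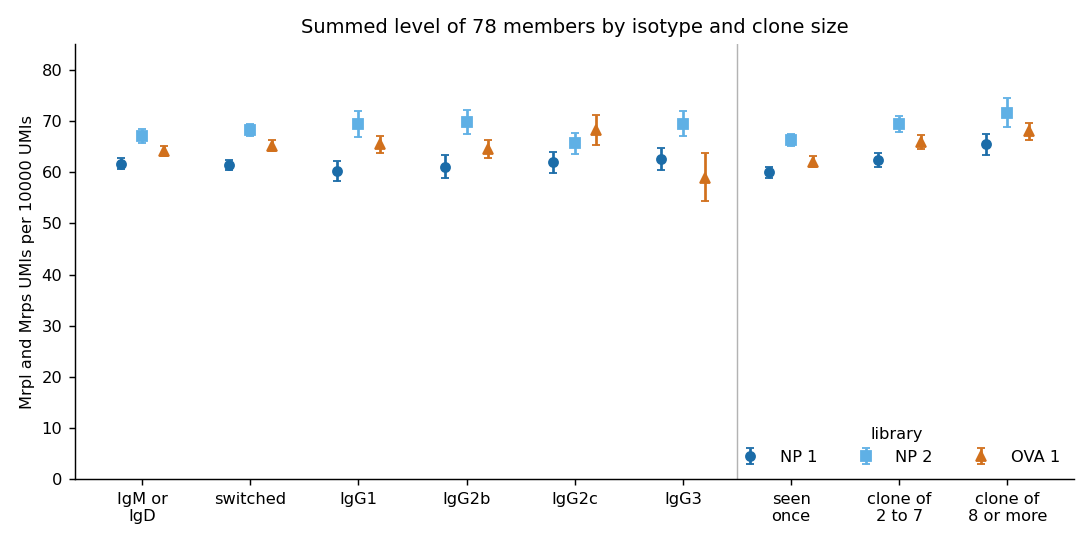
Summed UMIs of the 78 genes per 10000 UMIs (vertical axis) by isotype, left of the grey line, and by clone size, right of it, with a point per library and bars for the 95% exact Poisson interval. The sum is higher at each step of clone size, from 59.9 to 65.4 in NP 1, 66.2 to 71.5 in NP 2 and 62.0 to 67.9 in OVA 1, and follows no common order over the IgG subclasses. Bars of the 2 larger clone sizes overlap in each library.

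The other genes of mitochondrial translation were compared by lists chosen with earlier results of these data in view. Their shares of called genes are to be read against all genes tested, of which 12.3% were higher and 11.0% lower in mitotic cells, 15.7% and 11.2% in Mcm5-positive cells, and 7.58% and 9.02% in Cd83-high noncycling cells. Mitoribosomal proteins under other names had 1 of 5 higher in mitotic cells (Aurkaip1, 0.32 ± 0.10) and 1 of 5 in Mcm5-positive cells (Dap3, 0.25 ± 0.10), and 1 of 5 lower in Cd83-high noncycling cells (Chchd1, −0.41 ± 0.15). Factors that assemble the ribosome had 0 of 24 higher and 1 lower in mitotic cells (Rbfa, −0.63 ± 0.20). In Mcm5-positive cells 3 of 23 rose (13.0%, near the background of 15.7%), with a median of −0.08. The largest rise was in Tfb1m, which methylates the small subunit's RNA (1.27 ± 0.24), followed by Noa1 (0.47 ± 0.17) and Mpv17l2 (0.37 ± 0.12). In Cd83-high noncycling cells 0 of 23 passed, 0 of 15 translation factors passed, and 1 of 22 mitochondrial tRNA synthetases rose (Rars2, 0.79 ± 0.28).

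Among translation factors 1 of 15 was higher in mitotic (Mtfmt, 0.71 ± 0.26) and 1 of 15 in Mcm5-positive cells (Tsfm, an elongation factor, 0.32 ± 0.13). A list of 15 genes is too short to set these shares apart from the background. Of the tRNA synthetases 1 of 21 rose and 2 fell in mitotic cells. In Mcm5-positive cells 2 rose (Gars, 0.35 ± 0.09, and Kars, 0.33 ± 0.12) and 1 fell. Lars2 was lower in both states (−0.31 ± 0.07 and −0.17 ± 0.05). Genes of mitochondrial transcription had Tfam, which packages mitochondrial DNA, higher in Mcm5-positive cells (0.41 ± 0.12), with Mterf1a lower (−0.55 ± 0.22) out of 10 tested. The median log2 folds in mitotic and Mcm5-positive cells were −0.03 and −0.08 for assembly factors and 0.03 and −0.11 for translation factors, against 0.11 and 0.17 for the members. Median UMIs per gene in the mitotic comparison were 270.5, 293 and 1019.5, and the part of these lower counts was not tested.

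The proteins made by mitochondrial ribosomes work beside nuclear-encoded OXPHOS subunits. The genes of these 2 sets differed in direction in mitotic and Cd83-high noncycling cells. In Mcm5-positive cells the median of the mitochondrially encoded genes (−0.03) lay near that of all genes (−0.01). Nuclear OXPHOS genes were higher in 25 and lower in 2 of 77 in mitotic cells (median 0.12), higher in 37 and lower in 2 in Mcm5-positive cells (0.15), and lower in 33 and higher in 0 in Cd83-high noncycling cells (−0.27), close to the medians of the mitochondrial ribosomal proteins (0.11, 0.17 and −0.25). The 13 mitochondrially encoded genes had 7 lower and 0 higher in mitotic cells (median −0.17), 3 lower and 0 higher in Mcm5-positive cells (−0.03) and 10 higher and 0 lower in Cd83-high noncycling cells (0.17). Mt-Nd4, for example, was at −0.31 ± 0.06, −0.20 ± 0.05 and 0.34 ± 0.07 in the 3 comparisons.

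Proteins of the cytosolic ribosome also went opposite to those of the mitochondrial one. Of 81 genes, 58 fell and 1 rose in mitotic cells (median −0.23), 39 fell and 3 rose in Mcm5-positive cells (−0.09), and 47 rose and 1 fell in Cd83-high noncycling cells (0.15). Rps27, a small-subunit protein, was at −0.49 ± 0.06, −0.37 ± 0.04 and 0.42 ± 0.05. In Myc-positive cells 0 of 77 nuclear OXPHOS, 0 of 13 mitochondrially encoded and 0 of 81 cytosolic ribosomal genes were called. These medians are relative to all genes under the normalization used, and the lists were not tested against each other.

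**Figure D5:**
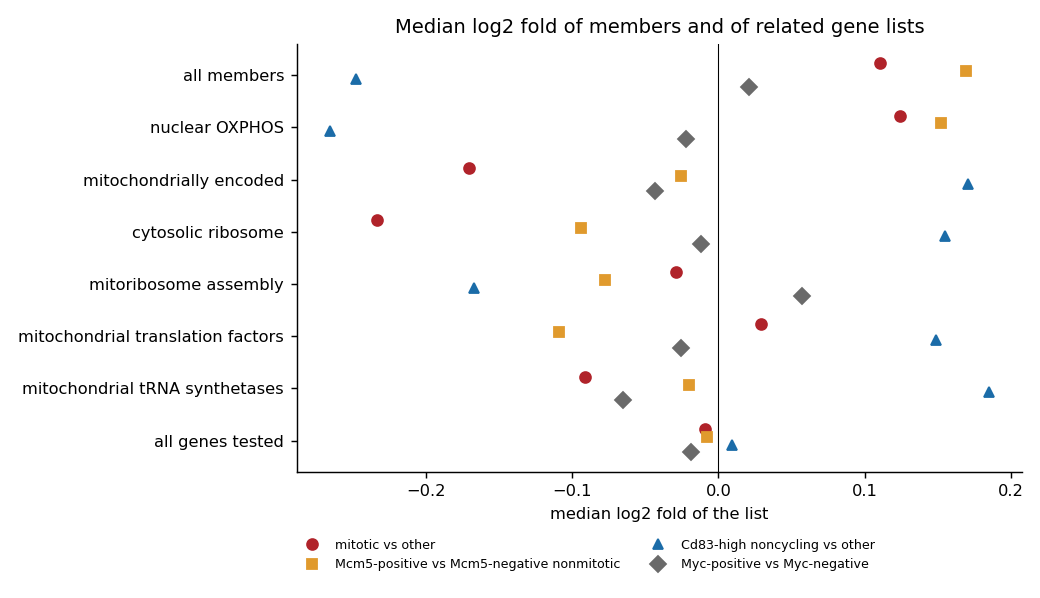
Median log2 fold (horizontal axis) of the 78 members, of 6 related lists and of all genes tested, with a symbol per comparison. The members and nuclear OXPHOS genes lie to the right of 0 in mitotic and Mcm5-positive cells and near −0.25 in Cd83-high noncycling cells. Cytosolic ribosomal genes lie on the opposite sides. Mitochondrially encoded genes do so in mitotic and Cd83-high noncycling cells and lie near 0 (−0.03) in Mcm5-positive cells.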

How the data were processed

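The authors made the counts with Cell Ranger on the mouse build mm10, per the submitters' processing notes, and deposited 1 matrix of UMI counts per gene and cell from a 10x 5′ kit, with no normalization, beside tables of assembled immunoglobulin chains. No tool version or strand setting is given there. Data from 16 bulk libraries were not used.

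Cells with at least 500 genes and at most 10% mitochondrial UMIs were thinned to 2500 UMIs, with a fixed seed. Counts were summed per library and state, 225 immunoglobulin genes and the genes that define the state were removed, and 9 comparisons were fitted across all genes with edgeR 4.0.16 in R 4.3.3 (filterByExpr, TMM, quasi-likelihood, Benjamini-Hochberg, threshold 0.05). Both arms of a comparison came from the same libraries, so the library was kept as a block, and this pairing follows from the design. DESeq2 1.42.0 was an alternative. No doublet caller was run; an alternative dropped likely doublets, that is the top 2% of cells by UMIs and cells with more than 1 productive heavy chain, and libraries shared 31 barcodes before filtering. The best-covered productive heavy chain set the isotype of a cell. Poisson intervals cover counting error only. The test was checked on simulated data that held no differences of a gene between libraries.

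The named genes were, for each comparison, up to 8 called genes per direction with the largest fold, then the 5 most abundant members, those in the fewest cells, those whose symbols mislead, and up to 3 called genes of each other list; further genes named were chosen after their values were seen. The members and the lists were chosen with earlier results of these data known. Promoters came from RefSeq (GRCm38.p6).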

Additional observations from a re-analysis of the deposited data

Results flagged for a closer look

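Cells above the limit of 10% mitochondrial UMIs took no part in the comparisons, and mitochondrial ribosomal protein transcripts were measured in them as well. Per 10000 nonmitochondrial UMIs, without thinning, the 78 genes summed to 52.3 in 1028 such cells of NP 1 (95% exact Poisson interval 51.4 to 53.3), 45.6 in 246 cells of NP 2 (43.6 to 47.6) and 45.7 in 588 cells of OVA 1 (44.3 to 47.2). They were flagged because these cells are outside the main measurement and hold a signal. The kept cells had 68.0, 74.3 and 70.4 on the same scale. The cells above the limit had medians of 2116, 1878 and 1575 UMIs, against 5892, 8049.5 and 7443 in the kept cells, and the part of this depth in the difference was not tested.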

How the results depend on the processing

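Counts of called members were recomputed under each alternative. The one that kept noncycling cells for the Myc comparison was chosen after seeing the data and gave 0. The share of all genes called under an alternative is not set beside these counts, here or above. A change in a count is therefore no result about the members in particular. Without the library as a block, the paired counts of 20 (mitotic), 25 (Mcm5-positive), 13 (Cd83-high), 14 (mitotic against Mcm5-positive), 24 (Cd83-high against Mcm5-positive) and 1 (expanded clones) became 1, 3, 1, 2, 9 and 0. DESeq2 gave 3, 6, 1, 2, 5 and 0, and thinning to 1500 UMIs gave 10, 11, 3, 6, 4 and 0. With all UMIs kept, mitotic cells had 39, Cd83-high cells 33, the direct comparisons 31 and 41, Myc-positive cells 2 and expanded clones 0. Thinning to 4000 UMIs gave 1 for Myc-positive cells and 0 for expanded clones. At least 1000 genes and at most 5% mitochondrial UMIs gave 2 (Cd83-high), 8 and 11 (direct comparisons), 1 (switched) and 0 (expanded). Mitotic cells from at least 6 genes gave 11, and Cd83-high cells gave 22 from 1 UMI, 8 from 3 UMIs and 20 with 1 cycle UMI allowed. Without likely doublets, mitotic against Mcm5-positive cells gave 9. Expanded clones gave 0 there, 0 in a second thinning, 0 in noncycling cells and 2 with totals only.

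Leaving out 1 library gave 10 to 13, 15 to 24, 5 to 10, 7 to 11, 10 to 17 and 0 to 1 in the same order, and 0 for Myc-positive and switched cells. The direction turned for Mrpl36 at 1500 UMIs (−0.11 in mitotic cells, −0.048 against Mcm5-positive), Mrps28 at 4000 UMIs (0.042, mitotic), Mrpl9 at 1500 UMIs (0.035, Mcm5-positive) and Mrpl49 without likely doublets (0.067, mitotic against Mcm5-positive). In Cd83-high cells Mrpl16 turned to 0.18 at 1500 and 0.00599 at 4000 UMIs, 0.085 in a second thinning and 0.21 in stricter cells. Against Mcm5-positive cells Mrpl16 turned to 0.10, 0.036 and 0.048 (1500 UMIs, second thinning, stricter cells), Mrpl50 to 0.074, 0.17 and 0.27 (1500 UMIs, stricter cells, without likely doublets) and Mrps25 to 0.25 (stricter cells). The causes were not tested.

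Of 57 named gene results 8 were called under every alternative run: Mrpl14 (Mcm5-positive, and mitotic against Mcm5-positive), Mrpl18 (Mcm5-positive and both Cd83-high comparisons), Mrpl28 (Mcm5-positive) and Mrps18a (mitotic, and mitotic against Mcm5-positive). DESeq2 ended 44 calls. In simulated data for the mitotic comparison (8883 genes) 50% of genes changed 1.5-fold were called and 76% of those changed 2-fold. For Cd83-high cells (8861 genes) these shares were 31.9% and 62%. The simulation gave every library the same mean share per gene and every gene the same dispersion. Differences of a gene between libraries were absent from it, so these rates need not hold for the real data.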
